A study of Mus musculus with 6 samples.

Results

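The 10 genes described here belong to the pericentral zone and the Wnt pathway of mouse liver, were chosen by name, and were followed in 6 liver RNA libraries. All 10 are among the 55536 genes of the table, and all 10 were tested. They were the enzymes Glul, Cyp2e1, Cyp1a2 and Oat, the transporters Rhbg and Slc1a2, the Wnt feedback genes Axin2, Rnf43 and Lgr5, and the transcription factor Tbx3. The study used C57BL/6 mice of 8 to 10 weeks in which Vmp1 is floxed, so that Cre can cut a stretch out of it. All animals received an intravenous adeno-associated virus (AAV8) with the hepatocyte-active TBG promoter. In the 3 libraries labelled H-VMP1 KO the virus carried Cre (AAV8-TBG-cre), and in the 3 control libraries, labelled WT, it carried none (AAV8-TBG-null). Livers were taken 2 weeks later. The floxed alleles and the AAV8-TBG virus were therefore common to both groups, and liver cells other than hepatocytes were not meant to express Cre and keep the intact gene. The comparison is of the labelled knockout with its controls, for genes of the central end of the liver lobule.

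Hepatocytes differ along the lobule, from the portal vein, where blood enters, to the central vein, where it leaves. Endothelial cells of the central vein secrete Wnt ligands and R-spondins, which stabilise beta-catenin in neighbouring hepatocytes, and beta-catenin with TCF/LEF factors switches on pericentral genes. Glul is the classic gene of the innermost hepatocyte layer, Cyp2e1 and Cyp1a2 reach further out, and Axin2, Rnf43 and Lgr5 act on the Wnt signal itself.

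Expression is in TPM, a length-corrected transcript abundance that sums to the same total in each library, so levels can be compared between genes. A level followed by ± is the mean and SD of the 3 libraries of a group. Fold changes are log2(TPM + 1), labelled knockout minus control, ± SE, with limma's adjusted p over all 12796 tested genes and a threshold of 0.05. The depth behind TPM is unknown, and the labels do not name the animal behind each sample, so a p-value reflects only how far the samples of a group lie apart, which may be technical. Vmp1 itself was at 157, 136 and 137 TPM in the labelled knockout and at 70.7, 96.5 and 88.6 TPM in controls. Its level goes against the label, though a value over the whole gene does not show whether the floxed stretch is gone. The libraries are therefore called labelled knockout, and each direction rests on the labels. Most genes were called higher in the labelled knockout as deposited, 74.5% of all tested genes against 10.7% lower, with a median log2 fold change of 0.77. Median-of-ratios scaling, called rescaling below, divides each library by the median of its genes' ratios to their mean, and it lowered log2 fold changes by a median of 0.835. Vmp1 had a log2 fold change of 0.75 as deposited and of -0.18, not called, after rescaling. Results are therefore given both ways.

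The same libraries differed in markers of the cells they hold. For the filtered counts below, 74.5% of all tested genes were higher and 10.7% lower as deposited. After rescaling 35.1% were higher and 36.6% lower. Of 16 endothelial markers 16 were higher as deposited and 10 after rescaling, and their summed TPM was 228 to 290.2 in the labelled knockout and 80.5 to 94.6 in controls. Of 14 macrophage markers 13 were higher with either scaling, with sums of 1368 to 1849 TPM in the labelled knockout and 141 to 241 TPM in controls. Of 14 stellate cell markers 14 were higher as deposited. The macrophage and stellate lists hold 2 and 3 markers that passed the filter only through the labelled knockout, and with no filter the counts as deposited were still 13 and 14. Of 10 hepatocyte markers 8 were lower as deposited and 10 after rescaling. Most tested markers of bile duct cells, neutrophils and lymphocytes passed the filter only through the labelled knockout, so they were counted without a filter. As deposited, 6 of 8 bile duct, 6 of 8 neutrophil and 9 of 9 lymphocyte markers were then higher and 0 lower, where 44.3% of all genes were higher. Of the 2 lymphocyte markers that passed the filter, 0 were higher with quantile normalization. Pecam1, Stab2, Clec4f, Adgre1, Lrat, Col1a1, Krt19, S100a8 and Alb, the defining markers, were above 0 in every library. In bulk tissue, fewer hepatocytes and less RNA per hepatocyte cannot be told apart, and the part of cell makeup in the results below was not tested.

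Sequences before the start sites are shown because beta-catenin acts through TCF/LEF factors and the genes below did not all move alike. RefSeq promoter windows on GRCm38.p6 were found for 7 of the 10 genes, in 8 windows, and the 250 bases before each start were searched for the TCF/LEF motif, as CTTTGAA or CTTTGAT and as CTTTGTA or CTTTGTT, on both strands. A match was found in 3 of the 7 genes, and 14.8% of all 32851 windows of this length hold one. The matches, in capitals, lie in Cyp2e1, Slc1a2 and Cyp1a2, and Glul is shown beside them as the marker of the innermost layer. The 4 sequences run 5′ to 3′ on the strand of the gene.
Cyp2e1, chr7:140763569-140763818, plus strand: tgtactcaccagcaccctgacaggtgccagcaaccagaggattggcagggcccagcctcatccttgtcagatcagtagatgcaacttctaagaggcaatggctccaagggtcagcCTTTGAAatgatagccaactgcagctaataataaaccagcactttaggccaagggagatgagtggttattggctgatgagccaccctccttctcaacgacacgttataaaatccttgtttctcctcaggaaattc
Slc1a2, chr2:102706188-102706437, plus strand: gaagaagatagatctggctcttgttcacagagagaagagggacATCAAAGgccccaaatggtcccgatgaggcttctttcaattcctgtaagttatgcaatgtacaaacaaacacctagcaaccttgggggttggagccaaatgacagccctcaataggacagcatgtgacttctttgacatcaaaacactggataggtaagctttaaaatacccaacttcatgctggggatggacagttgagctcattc
Cyp1a2, chr9:57683656-57683905, minus strand: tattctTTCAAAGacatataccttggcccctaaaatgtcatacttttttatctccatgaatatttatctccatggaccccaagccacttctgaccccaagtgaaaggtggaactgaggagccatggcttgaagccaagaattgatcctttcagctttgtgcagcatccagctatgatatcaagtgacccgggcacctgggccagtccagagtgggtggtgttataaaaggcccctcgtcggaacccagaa
Glul, chr1:153899679-153899928, plus strand: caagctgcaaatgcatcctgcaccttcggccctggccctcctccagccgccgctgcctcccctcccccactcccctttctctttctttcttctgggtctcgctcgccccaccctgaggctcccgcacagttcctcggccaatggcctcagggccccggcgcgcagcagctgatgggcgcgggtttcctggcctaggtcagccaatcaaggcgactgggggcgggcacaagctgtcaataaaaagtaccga
The match of Cyp2e1 starts 135 bases before the start site on the strand of the gene, and those of Slc1a2 and Cyp1a2 start 207 and 244 bases before it on the opposite strand. The Slc1a2 window precedes a RefSeq start that lies far inside the annotated gene. Those of Cyp2e1 and Cyp1a2 precede starts that lie a short way inside theirs, so these windows also run into the annotated genes. A match is a description of letters and not a bound site. Oat, Axin2 and Rnf43 also had windows, with no match to these letters. The genes with a match include the 2 whose levels fell most and 1 that did not pass the test as deposited, described next.

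Of the 10 genes, 6 fell and 1 rose as deposited, and 3 did not pass the test. One of the 6, Lgr5, passed the filter on low values only through the controls. Over all tested genes 10.7% were lower and 74.5% higher, and 85.2% were called in either direction. After rescaling 9 of the 10 were lower and 0 higher, against 36.6% lower, 35.1% higher and 71.8% called over all genes. Quantile normalization, which gives every library the same set of values, left 8 lower and 0 higher, against 35.4% lower, 35.3% higher and 70.8% called. When all genes with a value were tested, 6 were lower and 0 higher, against 5.7% lower, 44.3% higher and 50.0% called of 28532 genes. The median log2 fold change of the 10 genes was -1.02 as deposited and -1.60 after rescaling, beside 0.77 and -0.01 for all tested genes. The groups did not overlap in 7 of the 10 genes as deposited, where 86.8% of all tested genes were separated in this way, and in 9 after rescaling, where 76.4% were.

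**Figure D1:**
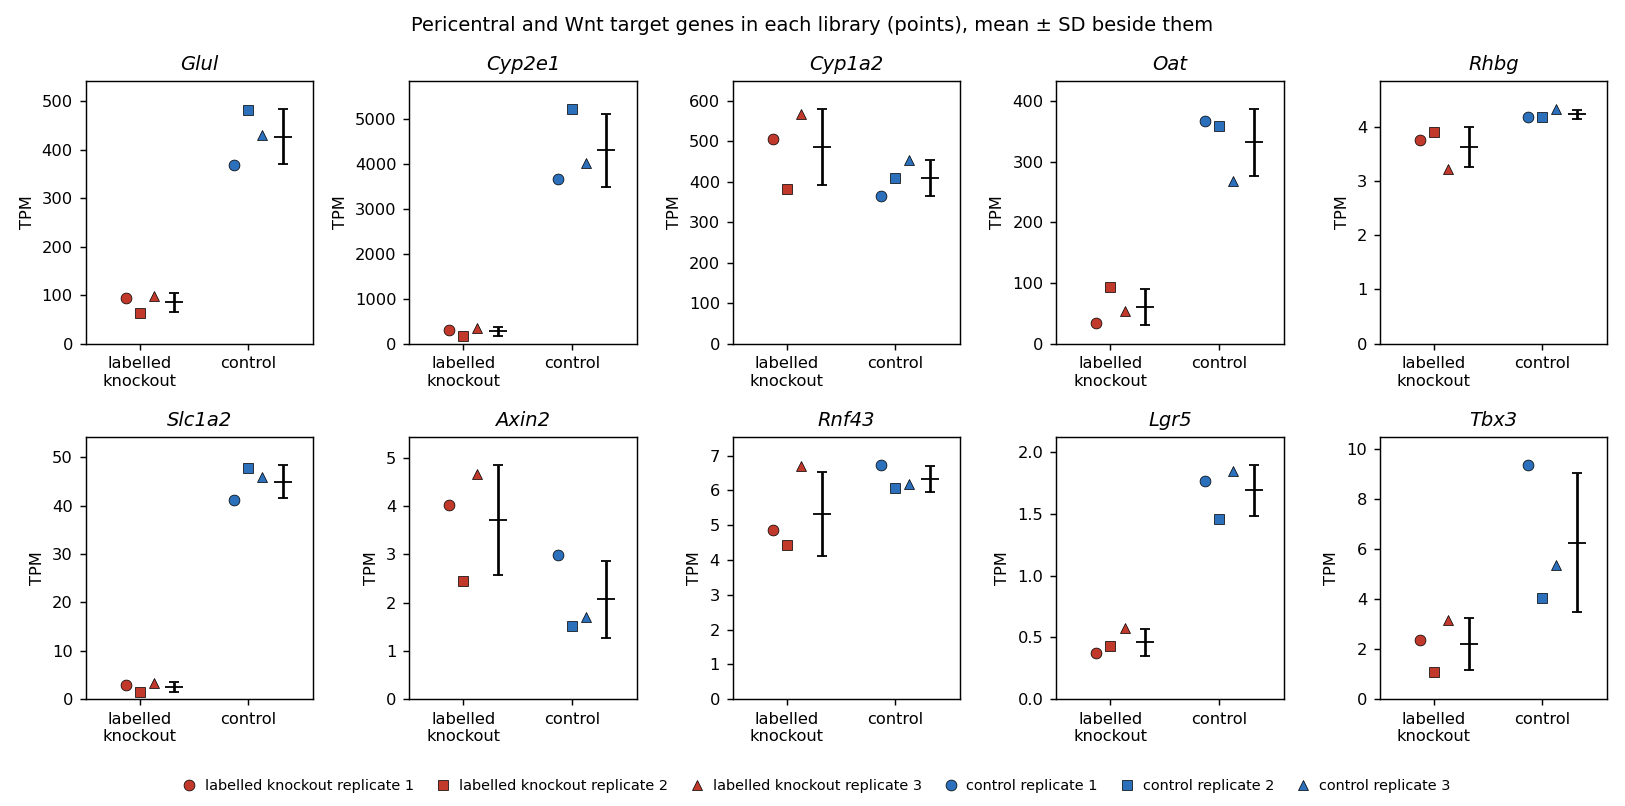
TPM of the 10 genes in each library (points, one symbol per replicate number), with the group mean ± SD beside the points, labelled knockout left of control. Glul, Cyp2e1, Oat, Slc1a2, Lgr5 and Tbx3 are lower in every labelled knockout library than in any control, while Cyp1a2, Axin2 and Rnf43 overlap.

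The enzymes did not move together. Cyp2e1 (ENSMUSG00000025479, GRCm38 chromosome 7, 140763739 to 140774987, plus strand) encodes a cytochrome P450 that oxidises ethanol and acetaminophen. Cyp2e1 was at 291, 161 and 356 TPM in the labelled knockout and at 3663, 5215 and 4019 TPM in controls. It was the most abundant of the 10 genes in controls, and the labelled knockout libraries lay far below the lowest control. The mean was 269 ± 99.2 TPM in the labelled knockout and 4299 ± 813 TPM in controls, a log2 fold change of -4.05 ± 0.30 with limma's adjusted p = 9.4e-06, and only 46 of the 12796 tested genes had a lower log2 fold change.

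Cyp1a2 (ENSMUSG00000032310, chromosome 9, 57676937 to 57683703, minus strand) encodes the P450 that oxidises caffeine and aromatic amines. Cyp1a2 was at 506, 383 and 567 TPM in the labelled knockout and at 365, 409 and 454 TPM in controls. The groups overlapped, with labelled knockout replicate 2 inside the control range. The log2 fold change was 0.23 ± 0.16 with limma's adjusted p = 0.2 and a 95% interval of -0.13 to 0.59. After rescaling Cyp1a2 was lower (-0.71 ± 0.16, adjusted p = 0.0044), and quantile normalization put it at -0.285 with adjusted p = 0.13. Without labelled knockout replicate 2 it was called higher as deposited (0.39, adjusted p = 0.021). Cyp1a2 is also a target of the aryl hydrocarbon receptor, and 5 of 5 tested genes of that pathway were higher as deposited, where 74.5% of all genes were, and 3 after rescaling, where 35.1% were. One of them, Cyp1a1, passed the filter only through the labelled knockout, so its call is no support. With no filter 6 of 8 listed genes of the pathway were higher and 0 lower as deposited. Of all genes 44.3% were higher and 5.7% lower in that fit. The receptor gene Ahr was at 15.0 ± 2.14 TPM in the labelled knockout and 8.35 ± 2.32 TPM in controls, higher as deposited and -0.07 after rescaling. Its other target Cyp1a1, a related P450, was at 2.42 ± 0.32 TPM in the labelled knockout and 0.317 ± 0.2 TPM in controls, and Tiparp, a feedback repressor of the receptor, was at 17.5 ± 3.48 and 1.24 ± 0.06 TPM in the same order. On the log2 scale Nqo1, a quinone reductase that NRF2 also drives, rose by 4.57, and Arnt, the receptor's partner, rose by 0.98 as deposited and was 0.12 and not called after rescaling. The part of the receptor in the Cyp1a2 values was not tested.

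Glul (ENSMUSG00000026473, chromosome 1, 153899944 to 153909723, plus strand) encodes glutamine synthetase, which binds the last ammonia of the blood into glutamine. Glul was at 93.6, 62.1 and 98.5 TPM in the labelled knockout and at 369, 482 and 429 TPM in controls. The groups were far apart, with labelled knockout replicate 2 the lowest. The mean was 84.8 ± 19.8 TPM in the labelled knockout and 427 ± 56.9 TPM in controls, a log2 fold change of -2.34 ± 0.18 with limma's adjusted p = 3.8e-06.

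Oat (ENSMUSG00000030934, chromosome 7, 132557478 to 132576398, minus strand) encodes ornithine aminotransferase, a mitochondrial enzyme that turns ornithine toward glutamate. Oat was at 34.0, 93.6 and 53.3 TPM in the labelled knockout and at 368, 360.1 and 269 TPM in controls. Here labelled knockout replicate 2, the lowest for Glul and Cyp2e1, was the highest of its group. Between the groups the log2 fold change was -2.55 ± 0.37 with limma's adjusted p = 8.9e-04. The annotated Fgfr2 gene overlaps Oat on the same strand and was at 26.7 ± 4.44 TPM in the labelled knockout and 13.2 ± 1.4 TPM in controls, the direction opposite to that of Oat.

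The transporters differed in size of change. Slc1a2 (ENSMUSG00000005089, chromosome 2, 102658659 to 102790784, plus strand) encodes GLT-1, a sodium-driven glutamate transporter. Slc1a2 was at 2.9, 1.41 and 3.38 TPM in the labelled knockout and at 41.1, 47.85 and 45.98 TPM in controls. The controls lay close together and the labelled knockout was lower by a factor of 17.5 between means. This gave a log2 fold change of -3.73 ± 0.21 with limma's adjusted p = 1.1e-06. Rhbg (ENSMUSG00000104445, chromosome 3, 88242874 to 88254709, minus strand) encodes an ammonium transporter of the Rhesus family. Rhbg was at 3.76, 3.91 and 3.22 TPM in the labelled knockout and at 4.18, 4.19 and 4.33 TPM in controls. Every labelled knockout library was below every control, yet by little, with a log2 fold change of -0.18 ± 0.10 and limma's adjusted p = 0.12 (95% interval -0.41 to 0.05). After rescaling Rhbg was lower (-0.93 ± 0.10, adjusted p = 9.7e-05). The gene model Gm38392 overlaps Rhbg on the same strand and was at 2.11 ± 0.488 TPM in the labelled knockout and 3.997 ± 0.991 TPM in controls, so the split of reads between the 2 is uncertain.

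Among the Wnt feedback genes, 1 fell, 1 was higher as deposited and 1 was not called. Lgr5 (ENSMUSG00000020140, chromosome 10, 115450311 to 115587780, minus strand) encodes a receptor for R-spondins. Lgr5 was at 0.37, 0.43 and 0.58 TPM in the labelled knockout and at 1.77, 1.46 and 1.85 TPM in controls. It was the least abundant of the 10 genes in both groups, and it passed the filter on low values only through the controls. Such a gene had to differ, so its call in the filtered table is no support. When all 28532 genes with a value were tested, with no filter, its log2 fold change was -0.88 with limma's adjusted p = 4.3e-04. A pseudocount of 0.1 in place of 1, which compresses low values less, gave -1.69. The mean in the labelled knockout was 27.2% of that in controls.

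Axin2 (ENSMUSG00000000142, chromosome 11, 108920349 to 108950783, plus strand) encodes a scaffold of the complex that marks beta-catenin for destruction and is a general readout of the Wnt signal. Axin2 was at 4.03, 2.44 and 4.67 TPM in the labelled knockout and at 2.98, 1.52 and 1.71 TPM in controls. The groups overlapped, since labelled knockout replicate 2 lay below control replicate 1. The log2 fold change was 0.62 ± 0.23 with limma's adjusted p = 0.036, below the 0.77 of the median gene. Without labelled knockout replicate 1 or 3, or control replicate 2 or 3, the call was lost (0.47 to 0.56, adjusted p = 0.11 to 0.12), and after rescaling Axin2 was at -0.07 ± 0.23 with adjusted p = 0.81.

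Rnf43 (ENSMUSG00000034177, chromosome 11, 87662722 to 87735539, plus strand) encodes a ubiquitin ligase that removes Frizzled receptors from the membrane. Rnf43 was at 4.85, 4.43 and 6.7 TPM in the labelled knockout and at 6.74, 6.06 and 6.19 TPM in controls. Labelled knockout replicate 3 lay within the control range and the other two below it. The log2 fold change was -0.23 ± 0.14 with limma's adjusted p = 0.15 (95% interval -0.54 to 0.08). It was called lower after rescaling (-1.03, adjusted p = 2.5e-04) and, as deposited, without labelled knockout replicate 3 (-0.38, adjusted p = 0.019). The sense-intronic gene 1110028F11Rik lies inside Rnf43 on the same strand and went the other way, at 5.92 ± 1.97 TPM in the labelled knockout and 1.63 ± 0.282 TPM in controls.

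Tbx3 (ENSMUSG00000018604, chromosome 5, 119670669 to 119684724, plus strand) encodes a T-box repressor found in pericentral hepatocytes. Tbx3 was at 2.35, 1.1 and 3.18 TPM in the labelled knockout and at 9.38, 4.04 and 5.35 TPM in controls. The groups did not overlap, but controls were spread widely and replicate 1 of the controls was the highest. A log2 fold change of -1.17 ± 0.35 was called with limma's adjusted p = 0.021, and leaving out labelled knockout replicate 1 ended the call (-1.23, adjusted p = 0.058). The antisense gene Tbx3os1, which overlaps the 5′ end of Tbx3 on the opposite strand, was at 0.68, 0.37 and 0.6 TPM in the labelled knockout and at 8.73, 6.56 and 8.8 TPM in controls. Its log2 fold change was -2.54 ± 0.14 with limma's adjusted p = 2.3e-07. Tbx3os1 passed the filter on low values only through the controls, so this call is no support. Since the sources used here do not give the strand setting, reads of Tbx3 and Tbx3os1 may be mixed.

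**Figure D2:**
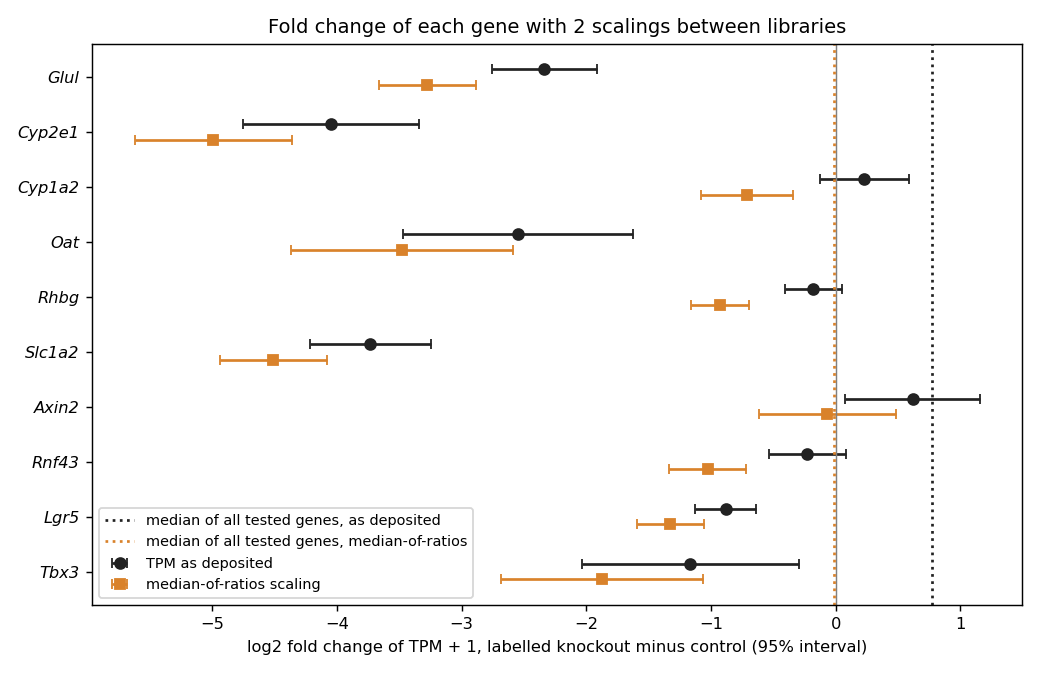
Log2 fold change of TPM + 1 for the 10 genes with its 95% interval, as deposited (black circles) and after rescaling (orange squares), and the median of all tested genes with each (dotted lines). Cyp2e1, Slc1a2, Oat and Glul lie at -2.34 or below with either scaling, and Axin2 is the 1 gene whose interval holds the median of all genes in both.

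After rescaling the genes that fell as deposited lay further from 0. Cyp2e1 was at -4.99 ± 0.27, Slc1a2 at -4.51 ± 0.18, Oat at -3.48 ± 0.37 and Glul at -3.27 ± 0.17 on the log2 scale, with limma's adjusted p of 5.5e-06, 1.6e-06, 2e-04 and 3.2e-06 in that order. Tbx3 was at -1.87 ± 0.34 with adjusted p = 0.0024 and Lgr5, with the limit on its filter given above, at -1.33 ± 0.12. Of all tested genes, 0.359% had a lower log2 fold change than Cyp2e1 as deposited, 0.453% lower than Slc1a2, 1.2% lower than Oat, 1.47% lower than Glul, 4.27% lower than Tbx3 and 5.78% lower than Lgr5. Those shares were 12% for Rnf43, 12.7% for Rhbg, 23.0% for Cyp1a2 and 41.1% for Axin2, so that each of the 10 genes lay below the middle of all tested genes.

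The order of the genes by level changed between the groups. In controls Cyp2e1 led, followed by Glul, Cyp1a2 and Oat, whose ranges overlapped from each to the next, then Slc1a2 alone at 44.98 ± 3.49 TPM. Rnf43, Tbx3 and Rhbg followed with overlapping ranges, and Axin2 at 2.07 ± 0.794 and Lgr5 at 1.69 ± 0.206 TPM overlapped at the low end. In the labelled knockout Cyp1a2 led at 485 ± 93.7 TPM, above Cyp2e1 with no overlap, and Glul and Oat came next with overlapping ranges. Slc1a2 at 2.56 ± 1.03 TPM now lay among Rnf43, Axin2, Rhbg and Tbx3, each of which overlapped the next in the order of means, and Lgr5 lay apart below them at 0.46 ± 0.108 TPM.

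Ratios of 2 genes within a library do not depend on the scaling between libraries, and 12 such pairs were compared, several of which share a gene. The two-sided exact permutation p was 0.1 for 9 of the 12 pairs, the smallest that 3 libraries against 3 can give, and 0.133 after Benjamini-Hochberg adjustment over the 12. No pair can therefore pass a threshold of 0.05, and the values are given with their separation. Cyp1a2 over Cyp2e1 was 1.74, 2.37 and 1.59 in the labelled knockout and 0.0996, 0.0785 and 0.113 in controls, a shift of 4.29 on the log2 scale. Slc1a2 over Glul was 0.031, 0.0227 and 0.0343 in the labelled knockout and 0.112, 0.0993 and 0.107 in controls, so the transporter was lower relative to the enzyme. Rhbg over Glul went the other way, at 0.0402, 0.0629 and 0.0327 in the labelled knockout and 0.0113, 0.00869 and 0.0101 in controls. Oat over Glul overlapped, at 0.363, 1.51 and 0.541 in the labelled knockout and 0.998, 0.747 and 0.627 in controls (exact permutation p = 0.8).

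Axin2 differed from Lgr5, Tbx3, Rnf43 and Glul in these ratios, and it was not paired with other Wnt targets. Lgr5 over Axin2 was 0.0918, 0.176 and 0.124 in the labelled knockout and 0.594, 0.961 and 1.08 in controls. Tbx3 over Axin2 was 0.583, 0.451 and 0.681 in the labelled knockout and 3.15, 2.66 and 3.13 in controls. Rnf43 over Axin2 was 1.2, 1.82 and 1.43 in the labelled knockout and 2.26, 3.99 and 3.62 in controls, and Axin2 over Glul was 9.24 times as high in the labelled knockout by the means of log2 ratios. The groups did not overlap in any of these 4 ratios. Rnf43 over its relative Znrf3 did overlap (exact permutation p = 0.2), as did Axin2 over Ctnnb1, the beta-catenin gene (exact permutation p = 0.5).

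Pericentral genes were also set against portal genes within libraries, and the direction depended on the genes chosen. Cyp2f2 is a P450 of the portal side. Cyp2e1 over Cyp2f2 was 0.938, 0.341 and 1.28 in the labelled knockout and 4.59, 6.32 and 4.38 in controls, and Glul over Cyp2f2 was 0.302, 0.131 and 0.355 in the labelled knockout and 0.461, 0.584 and 0.469 in controls. Both ratios were lower in each labelled knockout library than in any control, and replicate 2 of the labelled knockout was the lowest in both. Other pairs, added after the values were seen and not tested, did not follow. Cyp1a2 over Cyp2f2 was higher, at 1.63, 0.809 and 2.04 in the labelled knockout and 0.457, 0.496 and 0.496 in controls. Glul over Pck1, the gene of a gluconeogenic enzyme of the portal side, overlapped at 1.62, 0.235 and 1.15 in the labelled knockout and 0.287, 0.299 and 0.325 in controls. Cyp2e1 over Pck1 overlapped too, at 5.02, 0.609 and 4.16 in the labelled knockout and 2.86, 3.23 and 3.04 in controls. Against G6pc, the glucose-6-phosphatase gene, Glul was higher in each labelled knockout library, at 45.7, 5.42 and 27.5, than in controls, at 1.61, 3.08 and 2.52. These values show no single shift from pericentral to portal genes.

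**Figure D3:**
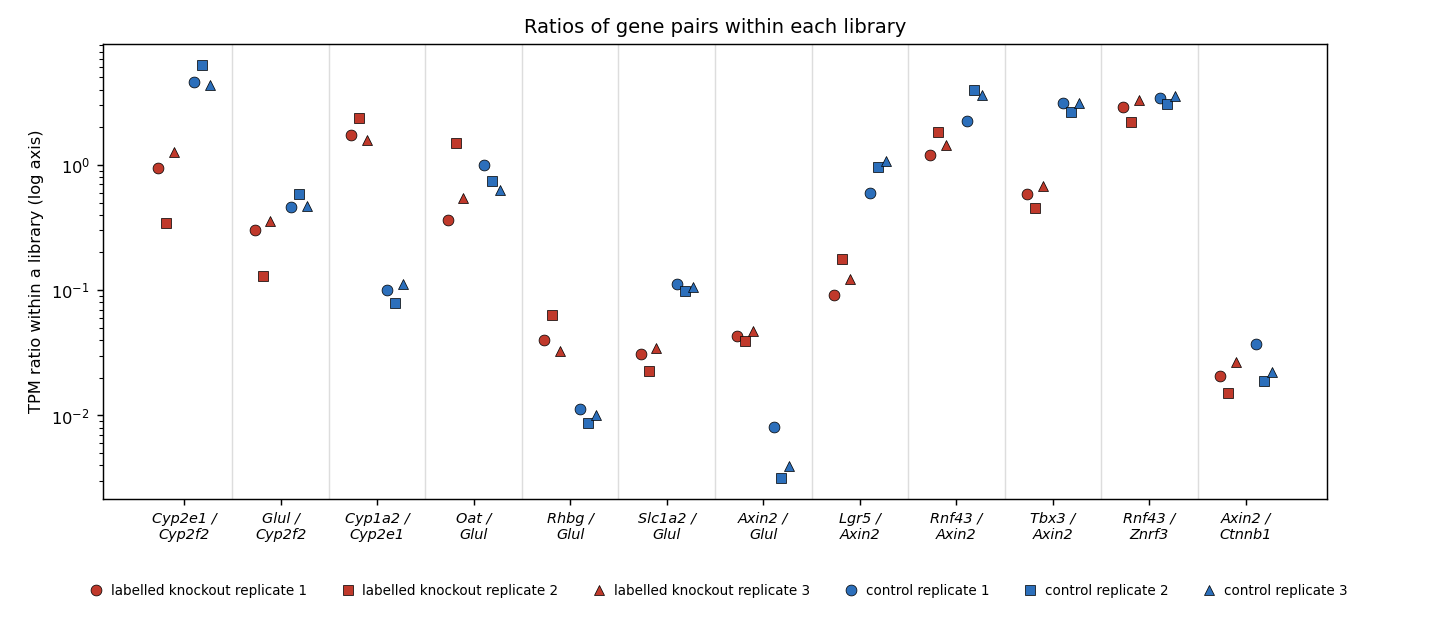
TPM ratio of 12 gene pairs within each library on a log axis, labelled knockout left of control for each pair, one symbol per replicate number. The groups are apart in 9 pairs, most widely for Cyp1a2 over Cyp2e1 (1.59 to 2.37 in the labelled knockout, 0.0785 to 0.113 in controls), and overlap for Oat over Glul, Rnf43 over Znrf3 and Axin2 over Ctnnb1.

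Upstream of these targets, few ligands were detected, and their direction depended in part on the scaling. Of 23 Wnt and R-spondin genes 8 were listed at 0 in all libraries and 4 passed the filter, of which Wnt2 and Wnt4 did so only through the labelled knockout, so no count is read from the 4. With no filter 15 were tested as deposited, 4 higher, 1 lower and 10 not called, where 44.3% of all genes were higher and 5.7% lower. Rspo3, the R-spondin of central vein endothelium that binds LGR receptors, was at 4.06, 3.88 and 4.88 TPM in the labelled knockout and at 1.18, 1.2 and 1.04 TPM in controls (log2 fold change 1.30 ± 0.11, limma's adjusted p = 3.5e-06). Wnt2, an endothelial ligand, was at 3.66, 1.71 and 3.69 TPM in the labelled knockout and at 0.68, 0.79 and 0.63 TPM in controls. With no filter its log2 fold change was 1.20 with limma's adjusted p = 0.0035, and with quantile normalization it was 0.33 and not called (adjusted p = 0.19). Wnt4 was at 1.32, 1.81 and 1.3 TPM in the labelled knockout and at 0.25, 0.46 and 0.28 TPM in controls, and it was 0.041 and not called with quantile normalization (adjusted p = 0.75). Wnt9b, the other endothelial ligand of the central vein, was at 0.82, 0.5 and 0.66 TPM in the labelled knockout and at 0.27, 0.21 and 0.18 TPM in controls, too low to pass the filter, as was Rspo1 at 0.0633 ± 0.0231 and 0.237 ± 0.127 TPM in the same order. Wnt5b fell, at 0.887 ± 0.254 TPM in the labelled knockout and 1.80 ± 0.561 TPM in controls.

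Rspo3 and Wnt2 were higher as deposited, as were the endothelial markers. Pecam1, the pan-endothelial marker, was at 12.7, 10.8 and 11.6 TPM in the labelled knockout and at 2.92, 3.39 and 3.3 TPM in controls. Rspo3 over Pecam1, a pair chosen after the values were seen and not tested, was 0.319, 0.36 and 0.421 in the labelled knockout and 0.404, 0.354 and 0.315 in controls, and Wnt2 over Pecam1 was 0.288, 0.158 and 0.319 in the labelled knockout and 0.233, 0.233 and 0.191 in controls. Both ratios overlapped between the groups. Of 9 markers listed for central vein endothelium, 3 are the ligand genes Rspo3, Wnt2 and Wnt9b. Of the 9, 8 passed the filter, 5 of them only through the labelled knockout and 1 only through controls. With no filter 8 of the 9 were higher and 1 lower as deposited, where 44.3% of all genes were higher and 5.7% lower. With quantile normalization 4 of the 8 that passed were higher and 2 lower, where 35.3% and 35.4% of all tested genes were. The count with quantile normalization is therefore no result about these markers. The lower one as deposited, named after its values were seen, was Lhx6, at 0.667 ± 0.198 TPM in the labelled knockout and 1.25 ± 0.14 TPM in controls. The part of endothelial content in the ligand values was not tested.

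The direction of the receptors depended on the scaling, as did that of all tested genes. Of 18 receptor genes 11 were tested, 5 higher, 2 lower and 4 not called as deposited, and 0 higher and 7 lower after rescaling. The shares over all tested genes were 74.5% higher and 10.7% lower as deposited, and 35.1% and 36.6% after rescaling. Lgr4, the more abundant R-spondin receptor, was at 7.24, 8.19 and 6.19 TPM in the labelled knockout and at 9.69, 10.6 and 11.3 TPM in controls (-0.49 ± 0.12, limma's adjusted p = 0.003). Lgr5 over Lgr4, also chosen after the values were seen, was 0.0511, 0.0525 and 0.0937 in the labelled knockout and 0.183, 0.138 and 0.164 in controls, so this ratio was lower in each labelled knockout library than in any control. Fzd6, Lrp5, Ryk, Fzd5 and Fzd4, which encode Wnt receptors and co-receptors, had log2 fold changes of 0.34 to 0.90 as deposited, and none of the 5 was called higher after rescaling, where Ryk and Fzd4 turned lower. The co-receptor gene Lrp6 was at 9.61 ± 0.327 TPM in the labelled knockout and 9.42 ± 0.231 TPM in controls. Znrf3, the ligase related to Rnf43, was at 1.90 ± 0.211 TPM in the labelled knockout and 1.89 ± 0.115 TPM in controls, and Fzd7 was at 3.92 ± 0.201 and 3.02 ± 1.44 TPM in the same order. Lrp6, Znrf3 and Fzd7 were not called as deposited, and Lrp6 and Znrf3 were lower after rescaling.

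Of 22 tested signal transducers 19 were higher and 0 lower as deposited, where 74.5% and 10.7% of all genes were. After rescaling 7 were higher and 9 lower, a split near the 35.1% and 36.6% of all genes, so the counts are no result about the transducers. Ctnnb1, which encodes beta-catenin, was at 195, 163 and 176 TPM in the labelled knockout and at 80.1, 80.8 and 77.1 TPM in controls (1.15 ± 0.10, limma's adjusted p = 3.8e-06, and 0.22 with adjusted p = 0.035 after rescaling). The casein kinase genes Csnk1e and Csnk1d rose by 2.15 and 1.34 on the log2 scale, the Wnt secretion factor Wls by 1.68, and the TCF factor gene Tcf7, also expressed by T cells, by 1.28. Axin1, the constitutive relative of Axin2, was at 13.7 ± 0.875 TPM in the labelled knockout and 6.197 ± 0.506 TPM in controls. These 6 genes, Ctnnb1 included, were higher with both scalings. Apc, a scaffold of the destruction complex, had a log2 fold change of 0.40 as deposited and -0.32 after rescaling. Tcf7l2, the main TCF factor of hepatocytes, was at 5.96 ± 0.42 TPM in the labelled knockout and 5.89 ± 0.507 TPM in controls, not called as deposited and lower (-0.79) after rescaling.

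Secreted and intracellular inhibitors included Notum, with the lowest log2 fold change of the tested genes in the 5 Wnt lists. Notum, itself a Wnt target, encodes a secreted enzyme that inactivates Wnt proteins. It was at 1.76, 3.41 and 2.24 TPM in the labelled knockout and at 21.0, 24.5 and 21.5 TPM in controls (-2.77 ± 0.16, limma's adjusted p = 5.6e-07). With no filter 8 of 19 inhibitor genes were higher and 2 lower as deposited, where 44.3% of all genes were higher and 5.7% lower. The counts are therefore no result about the inhibitors. Of the 19 genes, 5 passed the filter. Frzb and Dkk3, which encode secreted proteins of inhibitor families, passed it only through the labelled knockout, at 4.42 ± 0.97 and 1.98 ± 0.349 TPM in the labelled knockout and 0.307 ± 0.0751 and 0.297 ± 0.0379 TPM in controls. Nkd1, an intracellular feedback inhibitor, was at 4.85 ± 0.577 TPM in the labelled knockout and 2.06 ± 0.448 TPM in controls, higher as deposited and 0.23 and not called after rescaling. Kremen1, a receptor for DKK proteins, had a log2 fold change of 0.52 as deposited and -0.22 after rescaling.

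**Figure D4:**
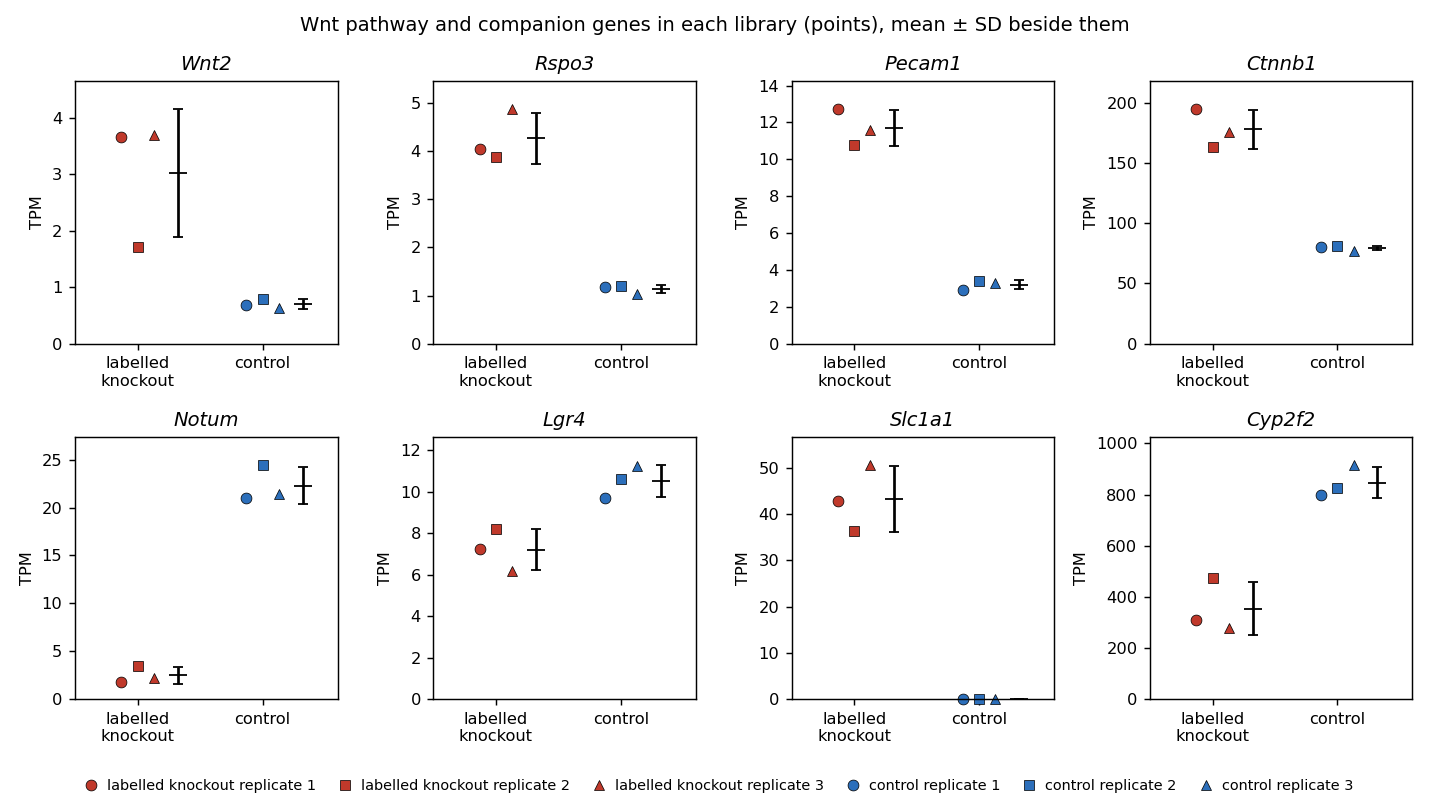
TPM of Wnt2, Rspo3, Pecam1, Ctnnb1, Notum, Lgr4, Slc1a1 and Cyp2f2 in each library (points), with the group mean ± SD beside them, labelled knockout left of control. The ligands and the endothelial marker Pecam1 are higher, and Notum, Lgr4 and Cyp2f2 lower, in every labelled knockout library than in any control.

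Other genes known as Wnt targets in various tissues also moved unevenly. Of 12 listed, 6 of which stand on the lists above as well, 9 were tested, 6 higher and 1, Notum, lower as deposited, and 4 and 3 after rescaling. Over all tested genes 74.5% were higher and 10.7% lower as deposited, and 35.1% and 36.6% after rescaling. With no filter 7 of the 12 were higher and 1 lower as deposited, where 44.3% and 5.7% of all genes were. The counts are therefore no result about these targets. Myc was at 52.0 ± 1.7 TPM in the labelled knockout and 3.21 ± 0.868 TPM in controls, and the cyclin gene Ccnd1 was at 33.8 ± 14.9 and 8.09 ± 1.8 TPM in the same order. Cd44, a hyaluronan receptor that leukocytes also carry, was at 17.6 ± 2.76 TPM in the labelled knockout and 0.66 ± 0.217 TPM in controls. These 3 genes respond to many signals and were higher with both scalings. Cd44 passed the filter on low values only through the labelled knockout, so its call is no support. Sp5, a more restricted Wnt target, was too low to be tested, at 0.24, 0.34 and 0.54 TPM in the labelled knockout and 1.05, 0.44 and 0.79 TPM in controls.

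Genes of both ends of the lobule were mostly lower. Of 26 other pericentral genes 25 were tested, 17 lower and 7 higher as deposited, and 18 and 3 after rescaling. Of 25 periportal genes 15 were lower and 6 higher as deposited, and 18 and 4 after rescaling. Over all tested genes 10.7% were lower and 74.5% higher as deposited, and 36.6% and 35.1% after rescaling. Medians were -1.18 for the other pericentral and -1.02 for the periportal genes as deposited, close to the -1.02 of the 10 genes. The 10 hepatocyte markers had a like median of -1.04. After rescaling these medians were -2.12, -1.95, -1.6 and -1.98 in that order. The fall was therefore not particular to the zonal lists. No test of the difference between zones was made over these lists.

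Named pericentral genes spanned both directions. The P450 genes Cyp2c54 and Cyp2c37 were at 0.893 ± 0.355 and 1.04 ± 0.2 TPM in the labelled knockout and at 99.6 ± 16.1 and 100.5 ± 16.3 TPM in controls. Their neighbours Cyp2c50 and Cyp2c29 had log2 fold changes of -5.22 and -4.52, and the near-identical sequences of the 4 make single values uncertain. Cyp7a1, the rate-limiting enzyme of bile acid synthesis, was at 0.71, 3.1 and 1.01 TPM in the labelled knockout and at 19.5, 37.4 and 24.5 TPM in controls. Gstm3, a glutathione transferase gene with close paralogs, went the other way, at 5937 ± 222 TPM in the labelled knockout and 119 ± 22.4 TPM in controls.

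On the portal side, the gluconeogenic genes G6pc, Pck1 and Fbp1 fell by 5.04, 3.66 and 2.07 on the log2 scale, and the urea cycle gene Otc fell by 2.63. Cyp2f2 was at 310, 473 and 278 TPM in the labelled knockout and at 799, 825 and 917 TPM in controls, a log2 fold change of -1.29 ± 0.19 with limma's adjusted p = 1.6e-04. Cdh1, the E-cadherin gene, also expressed by bile duct cells, rose by 2.26.

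**Figure D5:**
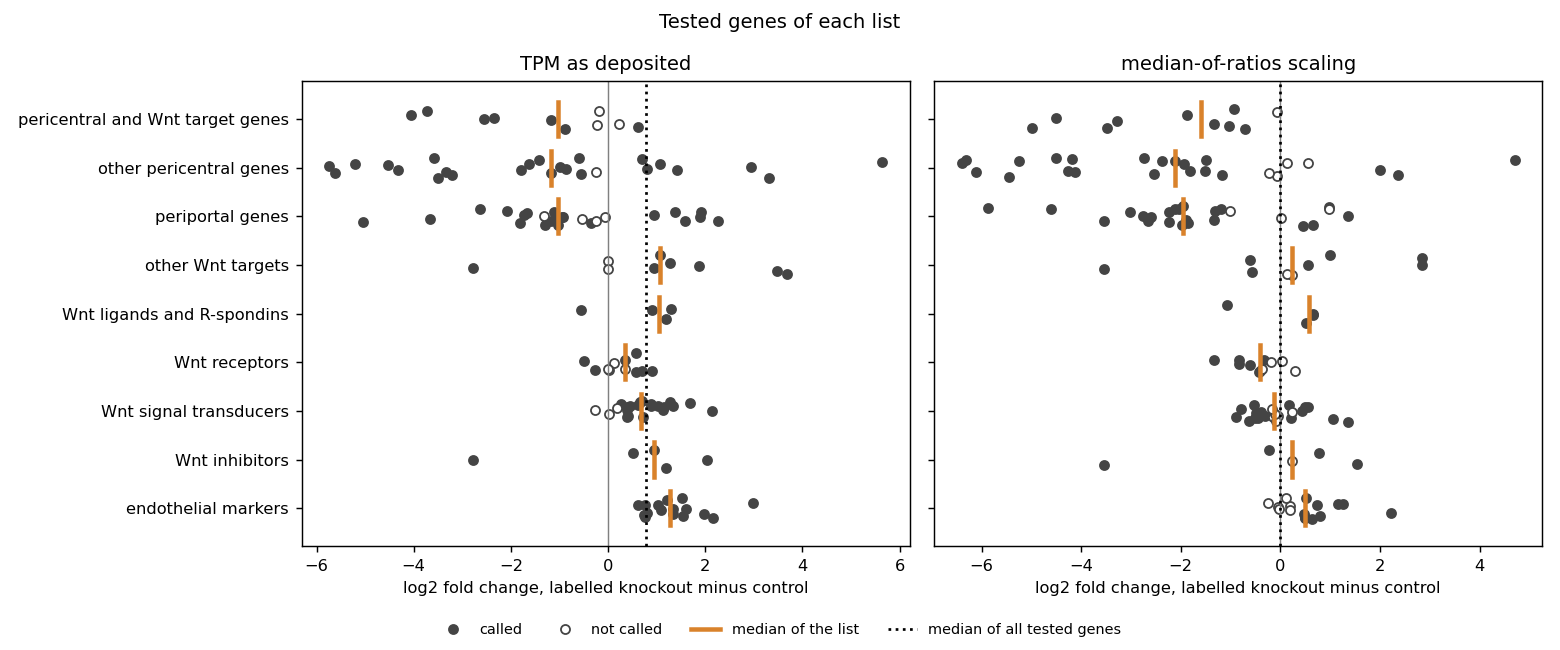
Log2 fold changes of the tested genes of each list, as deposited (left) and after rescaling (right), filled where called, with the median of the list (orange) and of all tested genes (dotted). The zonal lists have medians of -1.02 to -1.18 as deposited, and the endothelial markers have a median of 1.27, above the 0.77 of all genes. Some genes of the ligand, inhibitor and other Wnt target lists passed the filter only through the labelled knockout.

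Genes that handle glutamate and ammonia beside Glul, Oat, Slc1a2 and Rhbg moved both ways. With no filter 9 of 19 were higher and 6 lower as deposited, where 44.3% of all genes were higher and 5.7% lower. Of the 17 that passed the filter, 7 were higher and 10 lower after rescaling, where 35.1% and 36.6% of all genes were. As 4 of the 17 passed only through the labelled knockout, the count of higher genes among them is no support. Slc1a1, another glutamate transporter gene of the Slc1a2 family, was at 42.8, 36.5 and 50.7 TPM in the labelled knockout and listed at 0.01, 0 and 0.01 TPM in controls. Slc1a4 and Slc1a5, which carry neutral amino acids, were at 32.2 ± 4.45 and 7.39 ± 0.211 TPM in the labelled knockout and at 0.687 ± 0.159 and 1.26 ± 0.4 TPM in controls. Gls2, which encodes the glutaminase of periportal hepatocytes, was at 87.5, 169 and 65.2 TPM in the labelled knockout and at 216, 224 and 178 TPM in controls, with no overlap between the groups. Aldh18a1, which makes proline and ornithine precursors from glutamate, rose by 2.61 on the log2 scale.

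The genes whose profile over the 6 libraries was most like that of Glul were Cyp2d9, Wfdc21 and Serpina3k. Their log2(TPM + 1) profiles, centred on their mean, differed from that of Glul by a root mean square of 0.097, 0.172 and 0.177 among 8423 tested genes with a mean of at least 5 TPM. Cyp2d9 was at 230.4, 137 and 227 TPM in the labelled knockout and at 984, 1074 and 985 TPM in controls. Those most like Axin2 were Mid1ip1, Sel1l3 and Setd1a, at 0.121, 0.141 and 0.157. Such a likeness takes in the difference between the groups, and it is given as a description.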

How the data were processed

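Total RNA of mouse liver, extracted with Trizol, was sequenced from standard Illumina libraries, per the labels' protocols. The authors deposited 1 table in TPM, with Ensembl identifiers, symbols and 1 column per library. Tools listed, without roles, in the submitters' processing notes are RSEM, edgeR and STAR 2.6.1c, with the build mm10. Since TPM is a share of the library, corrected for length, the value of any gene depends on how much the most abundant ones hold. Read depth, and with it counting error, is unknown. RSEM splits reads that match several genes, which leaves close paralogs uncertain. The sources used here do not say whether reads were counted by strand.

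The 10 genes were taken by symbol. They, the other gene lists, the gene pairs and the naming rule were chosen with earlier results of these data known. The rule named all 10 genes, Vmp1, the paired genes, up to 5 called genes of each pathway or zone list with a mean of at least 1 TPM and the largest absolute fold change, a list of pathway genes whatever their result, the 3 profiles most like Glul and Axin2, and the defining cell type markers. Overlapping genes and Lhx6 were added afterwards. For 1 gene chosen by this rule, values are not reported here. Genes that reached 1 TPM in 3 or more libraries entered the test, by limma 3.58.1 (R 4.3.3; trend and robust options) on log2(TPM + 1), a scale that understates the change of low genes, with Benjamini-Hochberg adjustment over all 12796 tested genes. Alternatives were median-of-ratios scaling, quantile normalization, rescaling without the most abundant genes, pseudocounts of 0.1 and 0.5, no filter or a filter on the mean, a replicate block, and leaving out each library. On simulated data of 10831 genes, 87% of the genes given a log2 change of 1 were recovered and 99% of those given 2, beside 10 false calls. Each size of change was given to 100 genes, in both directions, with no shift over the other genes. The simulation therefore cannot speak to errors from the scaling between libraries. Ratios within libraries were compared as log2 values by an exact two-sided permutation test (scipy 1.17.1). Gene positions and overlaps were read from GENCODE M21 on GRCm38, which held 55450 of the 55536 identifiers, and promoters from the RefSeq table. Figures were drawn with matplotlib 3.10.9.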

Additional observations from a re-analysis of the deposited data

How the results depend on the processing

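Glul, Cyp2e1, Oat and Slc1a2 stayed lower and called under every alternative run, Lgr5 too, though it passed the filter only through the controls, and Tbx3 under every one but 1, the fit without labelled knockout replicate 1. With median-of-ratios scaling 4496 genes were higher and 4689 lower, 0 of them among the 10 genes higher, and Cyp1a2 was -0.71, Rhbg -0.93, Axin2 -0.068 and Rnf43 -1.03. With quantile normalization the counts were 4520, 4534 and 0, and these genes were -0.285, -1.02, -0.25 and -1.05. Rescaled without mitochondrially encoded and the 20 most abundant genes, 0 of the 10 were higher and 8 lower, with Rhbg and Rnf43 now called, and Rhbg was -0.36, Axin2 0.52 and Rnf43 -0.42. Without the Mup genes, an alternative chosen after seeing the data, 0 were higher and 8 lower, and Cyp1a2 was -0.031, Rhbg -0.40, Axin2 0.44 and Rnf43 -0.46. Without a filter 0 were higher, and Axin2 was 0.62 with adjusted p = 0.077. The cause of these differences was not tested beyond the scaling itself.

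Leaving out 1 library at a time, 9187 to 9604 genes were higher and 1259 to 1348 lower as deposited, of the 10 genes 0 to 2 were higher and 5 to 7 lower, and Axin2 ranged from 0.47 to 0.83, Cyp1a2 from 0.11 to 0.39, Rnf43 from -0.38 to -0.13, Rhbg from -0.22 to -0.11 and Tbx3 from -1.40 to -0.87. With median-of-ratios scaling, added after seeing the data, the same gave 4098 to 4428 higher and 4243 to 4655 lower genes, 0 and 9 of the 10, and ranges of -0.25 to 0.15 for Axin2, -0.82 to -0.58 for Cyp1a2, -1.15 to -0.94 for Rnf43, -0.99 to -0.85 for Rhbg and -2.18 to -1.60 for Tbx3. The 84 alternative values of the ratios moved by less than the replicate spread, and 38 of 544 alternative counts over the other lists moved by more than 1.5 times.

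Same-numbered samples did not deviate together over 12796 genes (correlations of 0.076, 0.04 and -0.115), so the numbers were not taken as pairs. With the replicate block 9427 genes were higher and 1333 lower, and no call among the 10 genes changed. With the block and median-of-ratios scaling, added after seeing the data, 4372 were higher and 4570 lower, 0 of the 10 higher, and Cyp1a2 was -0.71, Rhbg -0.93, Axin2 -0.068 and Rnf43 -1.03. Each group has 3 libraries, TPM holds no depth, and values under about 1 TPM, as for Lgr5 in the labelled knockout and for Wnt9b, Rspo1 and Sp5, have an unknown counting error.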

Other observations

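The libraries of the labelled knockout differed among themselves in a gene-dependent way. Labelled knockout replicate 2 was the lowest of its group in 7 of the 10 genes, Glul, Cyp2e1, Cyp1a2, Slc1a2, Axin2, Rnf43 and Tbx3, and the highest for Oat and Rhbg, with either scaling. Over all tested genes the same library was lowest in 53.1% and highest in 25.4% as deposited, and lowest in 35.6% and highest in 39.0% with median-of-ratios scaling. Among 25 periportal genes, replicate 2 was the highest of the labelled knockout in 19 as deposited and in 20 with median-of-ratios scaling. Among 25 other pericentral genes it was the highest in 10 and the lowest in 11 as deposited. Labelled knockout replicate 3 was the highest of its group in 8 of the 10 genes. These counts were made after the values were seen and were not tested.

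Slc1a1 and Slc1a2, which encode glutamate transporters of the same family, were summed after their values were seen. The sum was 45.7, 37.9 and 54.1 TPM in the labelled knockout and 41.1, 47.9 and 46.0 TPM in controls. Nearly all of it came from Slc1a1 in the labelled knockout and from Slc1a2 in controls, and the sums overlapped between the groups. Wls, which carries Wnt ligands to the cell surface, differed from Pecam1 in its change, with Wls over Pecam1 ratios, also chosen after the values were seen and not tested, of 0.36, 0.499 and 0.393 in the labelled knockout and 0.271, 0.201 and 0.306 in controls.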
